A study of Mus musculus with 9 samples.

Results

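The comparison described here sets squamous cell carcinoma (SCC) cells that express wild-type focal adhesion kinase (FAK) against the FAK-deficient cells from which they were made. It takes the 3 RNA-seq libraries labelled wild type and the 3 labelled null, 6 of the 9 libraries of the series, and tests all 19044 gene identifiers of the table of counts. Libraries were chosen by label alone, and no expression value entered the choice. The other 3 libraries came from cells expressing kinase-deficient FAK (FAK-kd). They shared the model fit, and a few of their values are set beside the others near the end.

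The tumour cells arose in FVB mice carrying K14CreER and FAK flox/flox, in which Cre is driven by a keratin 14 promoter, after a course of the carcinogen DMBA and the tumour promoter TPA on the skin. Both groups therefore share the mouse strain, the chemical exposure, the floxed alleles and the loss of endogenous FAK, which was induced in culture with 4-hydroxytamoxifen. FAK-/- cells carry that deletion, and FAK-WT cells are a FAK-/- clone with wild-type FAK put back by retrovirus and kept under selection. Each group is 1 cell line. A difference between the lines that is not due to FAK, such as one fixed by cloning, selection or vector insertion, cannot be told apart from the group, and p-values measure only the spread between libraries of these lines.

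FAK, the product of Ptk2, is a cytoplasmic tyrosine kinase that is recruited to integrins where cells attach to extracellular matrix. There it autophosphorylates, binds Src family kinases and phosphorylates adaptors such as paxillin and p130Cas, which feeds into ERK signalling and actomyosin tension. It also enters the nucleus, where it acts as a scaffold for transcription regulators. In squamous carcinoma FAK is known for its part in invasion and in the release of chemokines and cytokines that shape the immune cells around the tumour.

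Depth set what could be seen. FAK-WT replicate 1 held 779755 counts, 2.31% of the median of the other 8 libraries, and the other 5 libraries compared here held between 25304994 and 37264636. With 3 counts as the least that was read as present, FAK-WT replicate 1 showed a gene from 3.78 CPM (counts per 1000000 of the effective library size) and the other 5 libraries from 0.118 CPM or lower, so a value of 0 in that library says little for a gene of low level. FAK-/- replicate 3 stood apart in base composition. In that library the deviation of a gene from its mean over all 9 libraries rose with its GC content. The Spearman correlation across genes was 0.536, against -0.171 to -0.0394 in the other 8 libraries. Rpl10-ps1, a ribosomal protein pseudogene, was read at 426 CPM in FAK-/- replicate 3 and at 0 in the other 5 libraries compared. Each leading count is therefore also given without FAK-WT replicate 1, and without both of these libraries.

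The cells were labelled squamous cell carcinoma, but most defining keratinocyte markers were near 0 in both groups. Krt5, Krt14 and Krt18, Cdh1 (E-cadherin) and Cdh3 did not exceed 0.128 CPM in any of the 6 libraries, and 11 of the 14 keratinocyte markers in the table stayed at or under 10 CPM in every library. The summed level of the list, between 230 and 245 CPM in FAK-WT and between 374 and 399 CPM in FAK-/- libraries, was carried by the integrin chains Itga6 and Itgb4. Mesenchymal genes were high: Vim was read at 7441, 7450.1 and 7365 CPM in FAK-WT and at 6889, 6859 and 7659 CPM in FAK-/- replicates 1, 2 and 3, and Col3a1 reached 1676 CPM. The list of 11 fibroblast markers summed to 2420 to 2552 CPM in FAK-WT and 2149 to 2248 CPM in FAK-/- libraries, mostly from Col3a1 and Col6a3. Of the 11, 6 stayed at or under 10 CPM in every library, among them Col1a1, Col1a2 and Dcn. Thy1 and Fap stayed under 0.1 CPM in every library. Leukocyte markers (8 genes) summed to 2.52 to 9.31 CPM in FAK-WT and 14.4 to 19.3 CPM in FAK-/- libraries, with Cd14 as the highest and Ptprc (CD45) at no more than 0.629 CPM. Endothelial markers (7 genes) summed to at most 2.74 CPM and melanocyte markers (5 genes) to at most 17.0 CPM, nearly all of it Mitf. Past the threshold set out below were Lgals7 and Krt15, both lower, Pdgfra and Pdgfrb, both lower, Dcn and Dpt, both higher at under 1 CPM, Cdh5, higher at under 2 CPM, and no leukocyte or melanocyte marker. The part of these differences in the results below was not tested.

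In the comparison of all genes, 442 were higher in FAK-WT cells (2.32% of those tested) and 582 were lower (3.06%), where a gene passed the threshold if its adjusted p by edgeR's quasi-likelihood test did not exceed 0.05 and its log2 fold change was 1 or more up or down. Those shares are the background against which the counts of each gene group below are to be read. At an adjusted p of 0.05 or below with no fold minimum, 8.01% of all genes were higher and 9.96% lower, 18.0% in all, and counts with no fold minimum are to be read against these. Most of these genes were of low level: of the 9500 genes with a mean of at least 5 CPM over the 6 libraries, 120 were higher and 205 lower, and of the 12235 genes that edgeR's filterByExpr keeps, 7.10% were past the threshold. In 224 of the 1024 genes, no library of one group had more than 3 counts, and their fitted fold changes depend on a small constant added to the counts, so that no fold change is given for such genes. Leaving out FAK-WT replicate 1 gave 413 higher and 575 lower, of which 399 and 555 were among the genes counted above. Leaving out FAK-/- replicate 3 as well gave 473 and 574, with 381 and 507 in common.

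**Figure D1:**
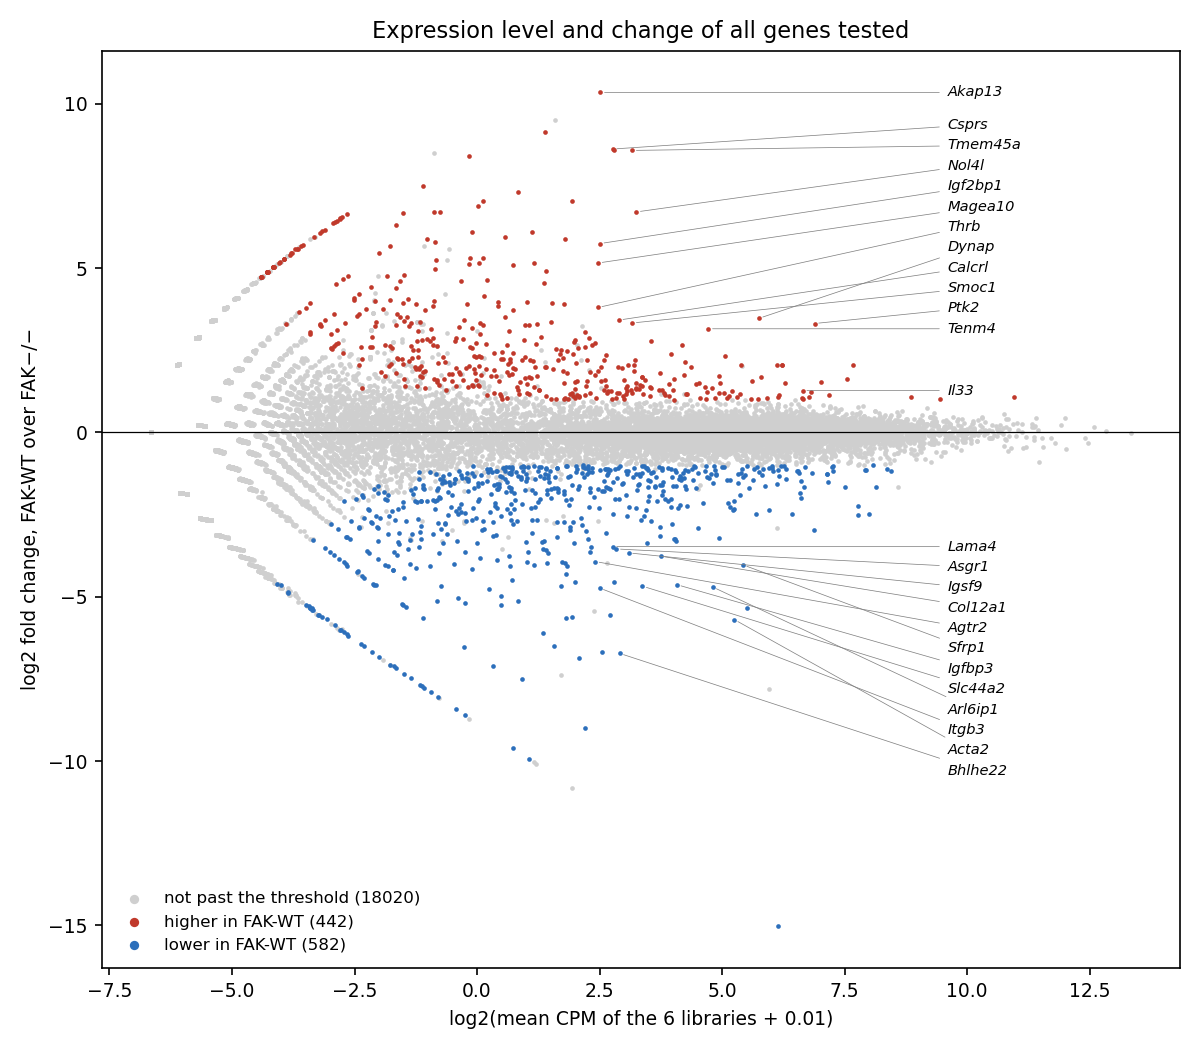
Each point is a gene: the x axis is log2 of the mean CPM of the 6 libraries plus 0.01, the y axis the log2 fold change of FAK-WT over FAK-/- cells from edgeR. The 442 higher genes are red and the 582 lower genes blue, with 25 genes of large change, Ptk2 and Il33 among them, named, and the blue point at the bottom is Rpl10-ps1, read in 1 library only.

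Ptk2 itself followed the labels. It lies at chr15:73205102-73423280 on the minus strand (GRCm38) and was read at 213, 216 and 216 CPM in FAK-WT replicates 1, 2 and 3 and at 21.8, 23.5 and 19.6 CPM in FAK-/- replicates 1, 2 and 3, a log2 fold change of 3.32 ± 0.0847 (SE, n = 3 per group), adjusted p = 1.16e-12. The groups were far apart, and the remaining FAK-/- reads are counted over the whole gene, so that they do not show which exons were present. An exact permutation test over the libraries gave p = 0.1, two-sided, the smallest that 3 libraries against 3 can give.

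Il33 encodes interleukin-33, an alarmin of the interleukin-1 family that is kept in the nucleus and binds the receptor chain ST2 once released. It lies at chr19:29925114-29960718 on the plus strand and was read at 138, 141 and 145 CPM in FAK-WT and 67.0, 62.7 and 46.3 CPM in FAK-/- libraries, all FAK-WT libraries being above all FAK-/- libraries. It had a log2 fold change of 1.28 ± 0.175 (SE, n = 3 per group), adjusted p = 8.77e-05. FAK-/- replicate 3 gave the lowest value, and the log2 fold change without it and without FAK-WT replicate 1 was 1.14. Of the other members of its family, Il18rap stood at 85.6, 96.6 and 91.5 CPM against 51.4, 52.4 and 48.3 CPM, a log2 fold change of 0.87 that was under the fold minimum, and Il33 was the only one of 16 interleukin-1 family ligands and receptors past the threshold.

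Acta2, smooth muscle alpha-actin, the actin of contractile cells and myofibroblasts, went the other way. It lies at chr19:34241090-34255590 on the minus strand and was read at 0, 1.49 and 1.44 CPM in FAK-WT libraries against 73.9, 72.2 and 78.7 CPM in FAK-/- libraries, a log2 fold change of -5.69 ± 0.142 (SE, n = 3 per group), adjusted p = 1.16e-12. The value of 0 is that of the shallow library, and its log2 fold change without that library was -5.67. The exact permutation test gave p = 0.1 for Acta2 and for Il33, again the smallest possible. In libraries from bulk cultures, fewer expressing cells and less RNA per cell cannot be told apart.

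The other genes with the largest increases came from no common family. Tmem45a, a transmembrane protein, was read at 15.1, 19.2 and 19.4 CPM in FAK-WT libraries and at 0, 0 and 0.128 CPM in FAK-/- libraries. Nol4l was at 17.6, 20.7 and 18.2 CPM against 0.120, 0.237 and 0.192 CPM, a log2 fold change of 6.71 ± 0.308 (SE, n = 3 per group), adjusted p = 9.26e-10. Igf2bp1, an RNA-binding protein of the fetal and tumour transcriptome, was at 13.8, 10.1 and 9.57 CPM against 0.150, 0.197 and 0.224 CPM, a log2 fold change of 5.75 ± 0.308 (SE, n = 3 per group), adjusted p = 4.07e-09. These genes were near silent in FAK-/- cells and clearly read in all 3 FAK-WT libraries, the shallow one included. The same held for Magea10, of the MAGE cancer-testis family, at 10.1, 10.7 and 11.5 CPM against 0.300, 0.434 and 0.192 CPM, and for Csprs, at 8.81, 14.8 and 17.1 CPM against 0.0300, 0.0789 and 0 CPM. Csprs lies on the scaffold GL456221.1, and how much of its sequence is shared with other genes was not measured.

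Receptors and other genes followed. Calcrl, the receptor that binds calcitonin gene-related peptide or adrenomedullin together with a RAMP protein, was read at 8.81, 14.6 and 17.0 CPM in FAK-WT and 1.80, 1.46 and 0.896 CPM in FAK-/- libraries, a log2 fold change of 3.42 ± 0.267 (SE, n = 3 per group), adjusted p = 2.68e-07. Thrb, thyroid hormone receptor beta, was at 13.8, 9.05 and 8.22 CPM against 1.08, 0.670 and 0.224 CPM, and Tenm4, a teneurin of the cell surface, at 55.4, 46.4 and 41.0 CPM against 5.42, 5.09 and 4.74 CPM. All of these were chosen by a rule that required the groups not to overlap, which 42.5% of the 12235 genes kept by filterByExpr met. Dynap rose from 9.08, 8.99 and 8.80 CPM in FAK-/- libraries to 94.4, 98.6 and 103 CPM in FAK-WT libraries, a log2 fold change of 3.47 ± 0.0856 (SE, n = 3 per group), adjusted p = 1.16e-12. Akap13, a scaffold for protein kinase A that also activates RhoA, was past the threshold (adjusted p = 0.0245) with 30.2, 0.452 and 3.60 CPM in FAK-WT replicates 1, 2 and 3 and 0 in each FAK-/- library. Its 3 FAK-WT values differed widely, and the highest came from the shallow library. With low genes left out by filterByExpr its adjusted p was 0.0561.

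Among the largest decreases, besides Acta2, were transcription and signalling genes. Bhlhe22, a basic helix-loop-helix repressor, was read at 0, 0.106 and 0.173 CPM in FAK-WT libraries and at 13.5, 14.2 and 17.0 CPM in FAK-/- libraries, a log2 fold change of -6.72 ± 0.221 (SE, n = 3 per group), adjusted p = 2.19e-11. Igfbp3, which binds insulin-like growth factors outside the cell, was at 1.26, 0.958 and 1.67 CPM against 30.98, 29.5 and 36.9 CPM, a log2 fold change of -4.63 ± 0.184 (SE, n = 3 per group), adjusted p = 2.51e-10. Agtr2, the type 2 receptor of angiotensin II, was at 1.26, 0.506 and 0.750 CPM against 11.1, 10.6 and 7.49 CPM. Here too the rule that chose the genes required that the groups not overlap. Arl6ip1, a membrane protein of the endoplasmic reticulum, fell to 2.52, 2.00 and 2.11 CPM from 57.1, 54.6 and 49.4 CPM, and Igsf9 and Asgr1 fell by 3.66 and 3.55 on the log2 scale. Slc44a2, a choline transporter, was also past the threshold (adjusted p = 0.00824), but FAK-/- replicate 2 was at 1.70 CPM where the other FAK-/- libraries were at 27.3 and 31.5 CPM, close to the FAK-WT values of 0, 0.852 and 0.750 CPM. Its adjusted p was 0.0551 without FAK-WT replicate 2 and 0.0575 without FAK-WT replicate 3.

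**Figure D2:**
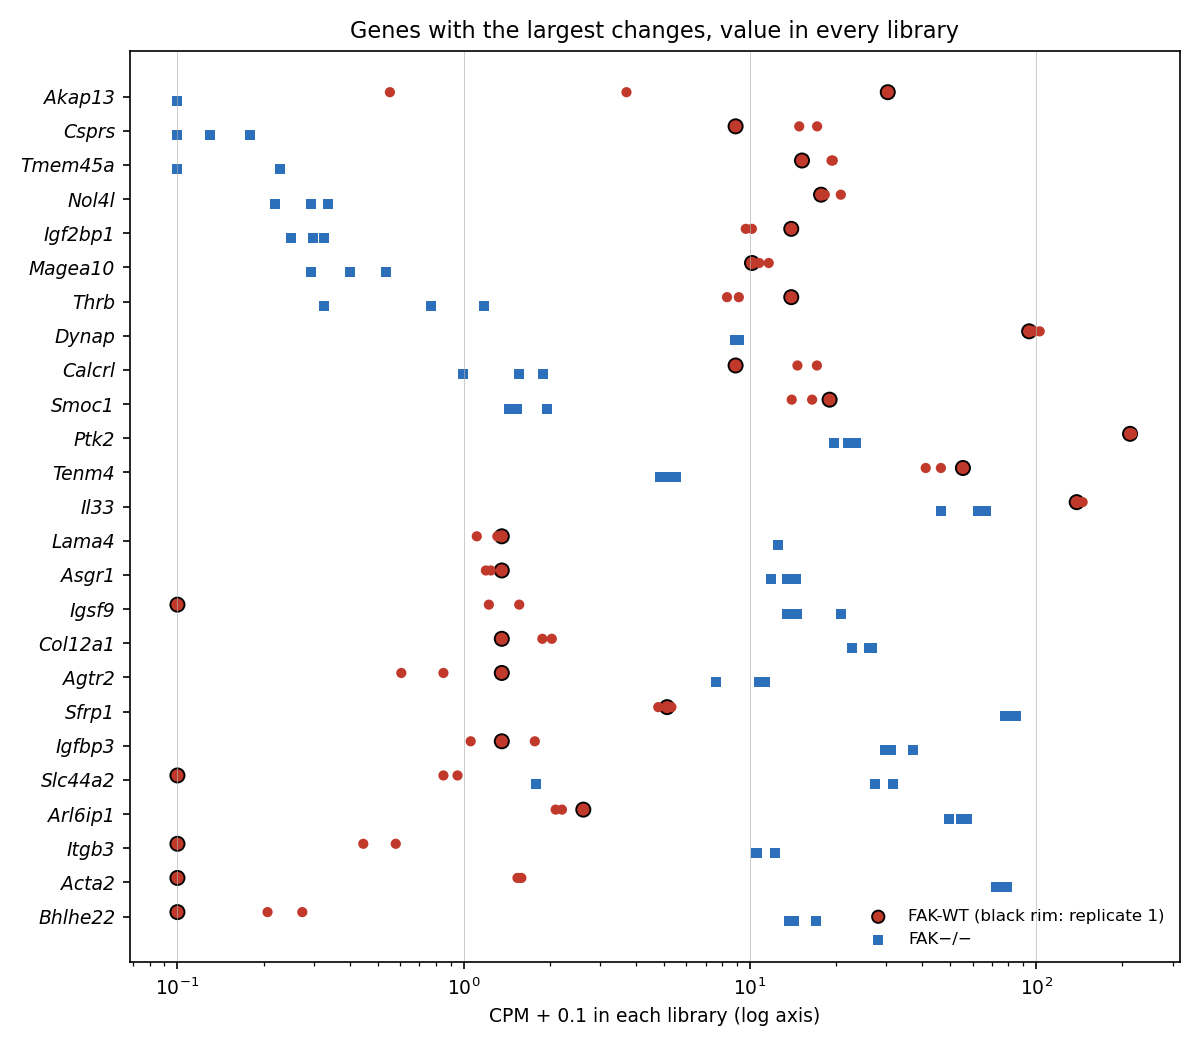
CPM plus 0.1 on a log axis in each of the 6 libraries for the 25 genes named by rule, ordered by log2 fold change, with FAK-WT libraries as red circles (replicate 1 ringed) and FAK-/- libraries as blue squares. Separation of the groups was a condition of the rule for the largest changes, and it is narrow for Slc44a2 because of FAK-/- replicate 2, while Akap13 spreads over its 3 FAK-WT libraries.

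In the pathway of FAK itself 8.57% of the genes were past the threshold, beside 5.38% of all genes tested. That share includes Ptk2, whose difference was set by the design, and rests otherwise on 2 genes. Of 35 genes of FAK, Pyk2, Src family kinases and their adaptors, Ptk2 was higher and 2 were lower, among them Lck, a Src family kinase known from T cells. Lck was read at 0, 0.266 and 0.231 CPM in FAK-WT and 1.23, 0.986 and 1.38 CPM in FAK-/- libraries, a log2 fold change of -2.28 ± 0.401 (SE, n = 3 per group), adjusted p = 8.14e-04. Pathway members of high CPM did not pass, with log2 fold changes of 0.074 for Crk, 0.17 for Ptpn11 (SHP2) and 0.063 for Asap1. The list's median log2 fold change was -0.09, against 0 over all genes tested. With no fold minimum, 7 of its genes were lower and 1 higher, beside 9.96% lower and 8.01% higher over all genes.

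Integrins, the matrix receptors upstream of FAK, changed in both directions, 3 higher and 3 lower of 26. Itgb3, the beta3 chain of the vitronectin receptor, was read at 0, 0.479 and 0.346 CPM in FAK-WT libraries and 10.4, 12.2 and 10.5 CPM in FAK-/- libraries, a log2 fold change of -4.73 ± 0.209 (SE, n = 3 per group), adjusted p = 7.16e-10. The collagen receptor chain Itga1 fell to 1.26, 2.08 and 2.54 CPM from 7.94, 9.42 and 6.43 CPM, and Itga2, of the same class, fell from between 1.26 and 1.58 CPM to 0.173 CPM or below. Another collagen receptor chain, Itga10, went up, from 2.31, 2.29 and 3.27 CPM to 3.78, 8.33 and 8.28 CPM, a log2 fold change of 1.58 ± 0.235 (SE, n = 3 per group), adjusted p = 1.88e-04. Itgb7, the beta7 chain known from lymphocytes, was at 139.7, 156 and 151 CPM against 71.6, 67.2 and 73.4 CPM, a log2 fold change of 1.09 ± 0.0689 (SE, n = 3 per group), adjusted p = 2.88e-08, and Itgb2 was past the threshold at levels under 1 CPM, although not without FAK-WT replicate 1 and FAK-/- replicate 3. Itgb1, the chain with the highest CPM, stood at 831, 823 and 865 CPM against 879, 892 and 704 CPM (log2 fold change 0.026, adjusted p = 0.895).

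Focal adhesion and actin-linking proteins gave 1 higher and 3 lower of 48. The LIM protein Csrp1 was read at 55.4, 56.3 and 57.6 CPM in FAK-WT and 131, 134 and 136 CPM in FAK-/- libraries, a log2 fold change of -1.24 ± 0.0701 (SE, n = 3 per group), adjusted p = 7.83e-09. Palladin (Palld), which bundles actin, stood at 51.6, 53.3 and 47.6 CPM against 97.7, 100.3 and 111 CPM, and Fblim1, which links filamin to adhesions, at 1.26, 5.93 and 5.33 CPM against 9.92, 10.9 and 12.2 CPM. Both were near the minimum: Palld was not past it without FAK-/- replicate 3 or FAK-WT replicate 3 (log2 fold changes of -0.97 and -0.96), and Fblim1 without FAK-/- replicate 3, FAK-WT replicate 1 or FAK-WT replicate 3 (-0.91, -0.96 and -0.99). With no fold minimum, 17 members of the list were lower and 7 higher, beside 9.96% lower and 8.01% higher over all genes, and its median was -0.22.

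Contractile genes gave a like picture, with 1 higher and 3 lower of 27, and 12 lower with no fold minimum. Synpo2, an actin-binding protein of muscle Z discs, fell from 58.9, 62.2 and 53.01 CPM to 8.81, 12.7 and 14.0 CPM, a log2 fold change of -2.14 ± 0.116 (SE, n = 3 per group), adjusted p = 4.29e-09, beside Acta2. Myl9 was lower and Des higher, both at levels under 1 CPM in every deep library. Tpm1 stood at 866, 883 and 874 CPM against 1086, 1066 and 1045 CPM, a log2 fold change of -0.28. Rhoj, a Cdc42-like GTPase, fell to 11.3, 12.6 and 12.7 CPM from 64, 63.9 and 62.04 CPM, a log2 fold change of -2.33 ± 0.106 (SE, n = 3 per group), adjusted p = 9.00e-10, and Dock4, an activator of Rac, fell by 1.06 on the log2 scale, a fall under the minimum without FAK-/- replicate 2 (-0.97), FAK-WT replicate 2 (-0.97) or FAK-WT replicate 3 (-0.998), while Rhoa and Rac1 had log2 fold changes of 0.035 and -0.028. Of 36 YAP/TAZ and TEAD factors and targets, 5 were lower (Vgll3, Rbms3, Nt5e, Foxf2 and Ccn2) and Ankrd1 was higher, at 6.29, 10.4 and 10.3 CPM against 2.13, 2.76 and 2.56 CPM.

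**Figure D3:**
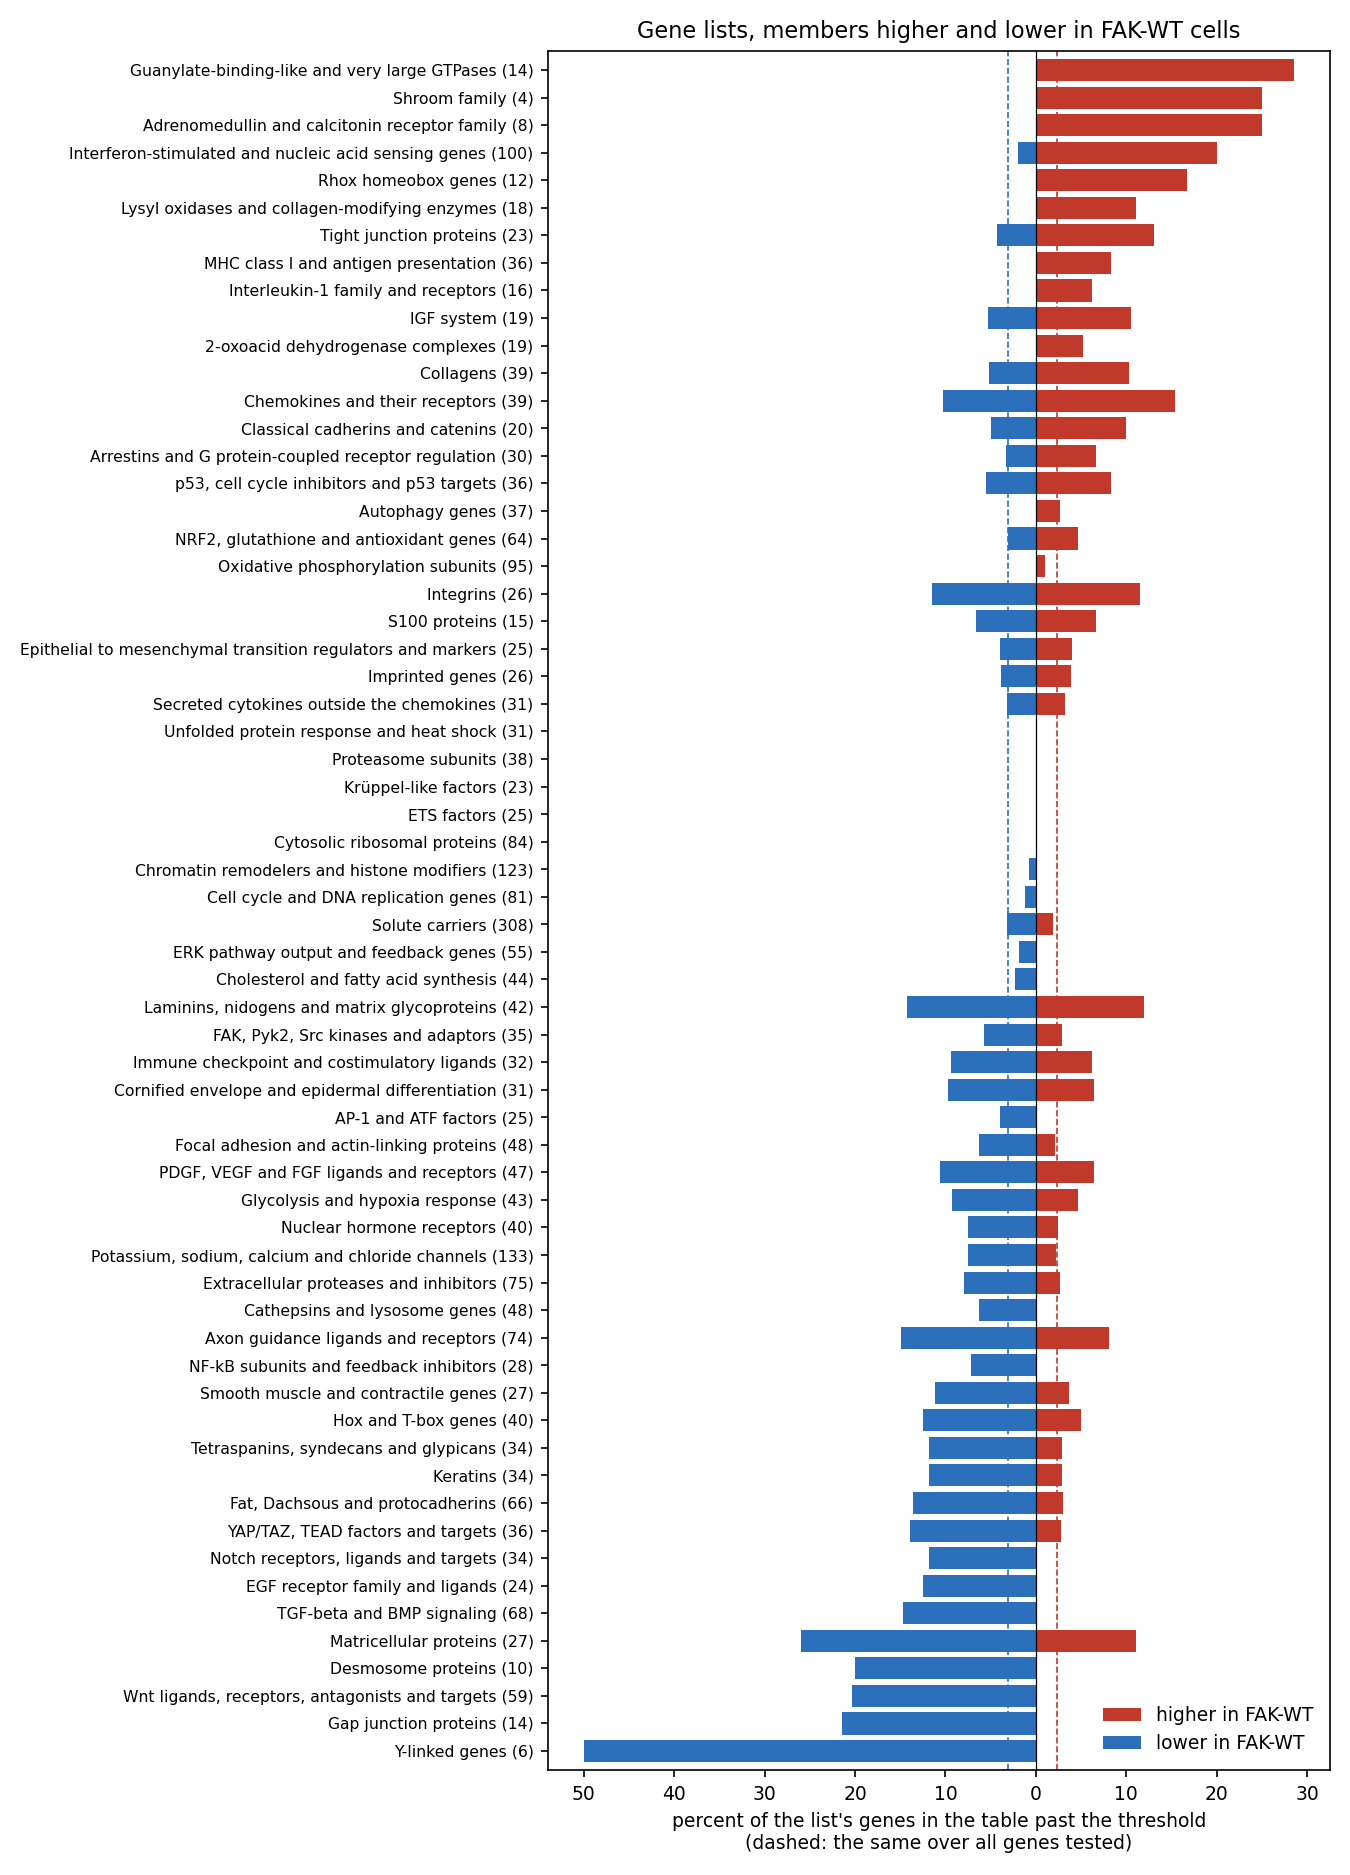
Percent of each of 62 gene lists that was past the threshold, higher in FAK-WT cells to the right (red) and lower to the left (blue), with the number of list genes in the table in parentheses and the shares over all genes tested, 2.32% and 3.06%, as dashed lines. Interferon-stimulated genes and large GTPases, lists that share members, lie towards the top, and Wnt, TGF-beta and matricellular genes towards the bottom. Short lists there, such as the 6 Y-linked genes, take large percentages from few genes.

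Among lists of 20 or more genes, the matricellular proteins of the secreted matrix had the largest share past the threshold, 37%. Other matrix lists had smaller shares, such as 15.4% of the collagens. Of 27 matricellular proteins, which modify adhesion and signalling without building fibres, 7 were lower and 3 higher. Tgfbi, an integrin ligand named for its induction by TGF-beta, was read at 66.7, 65.2 and 65.1 CPM in FAK-WT and 373, 361 and 387 CPM in FAK-/- libraries, a log2 fold change of -2.52 ± 0.0689 (SE, n = 3 per group), adjusted p = 2.41e-12. Fstl1 stood at 79.3, 72.4 and 77.6 CPM against 365, 367 and 347 CPM, and Ccn3 at 29.0, 23.5 and 24.5 CPM against 61.3, 57.9 and 53.1 CPM. The related calcium-binding proteins Smoc1 and Smoc2 moved in opposite directions. Smoc2 fell from 207, 202 and 213 CPM to 31.5, 26.1 and 26.5 CPM, a log2 fold change of -2.96 ± 0.143 (SE, n = 3 per group), adjusted p = 1.57e-09, while Smoc1 rose from 1.86, 1.34 and 1.44 CPM to 18.9, 16.4 and 13.9 CPM, a log2 fold change of 3.33 ± 0.207 (SE, n = 3 per group), adjusted p = 2.42e-08. The members with the highest CPM did not pass, with log2 fold changes of -0.33 for Spp1 (osteopontin) and -0.072 for Sparc.

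Basement membrane and fibril-associated glycoproteins gave 5 higher and 6 lower of 42. Nephronectin (Npnt), a ligand of integrin alpha8beta1, fell from 41.3, 40.3 and 39.7 CPM to 5.04, 5.03 and 5.82 CPM, a log2 fold change of -2.90 ± 0.153 (SE, n = 3 per group), adjusted p = 3.44e-09. Lama4, the laminin alpha4 chain, stood at 1.26, 1.01 and 1.21 CPM against 12.4, 12.4 and 12.4 CPM, and the elastic fibre protein Fbn2 at 1.26, 0.0532 and 0.0288 CPM against 4.52, 5.17 and 6.66 CPM. Efemp1 (fibulin-3) rose, from 101, 100.3 and 70.9 CPM to 281, 275 and 290.1 CPM, a log2 fold change of 1.63 ± 0.109 (SE, n = 3 per group), adjusted p = 5.27e-08. The common laminin chains Lamb1 and Lamc1 and fibronectin (Fn1) had log2 fold changes of -0.11, 0.17 and -0.17.

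Collagens gave 4 higher and 2 lower of 39, and 3 of the 4 higher ones were at or under 0.5 CPM in every deep library. Col12a1, a collagen that sits on fibril surfaces, fell from 22.6, 26.1 and 26.7 CPM to 1.26, 1.78 and 1.93 CPM, a log2 fold change of -3.76 ± 0.19 (SE, n = 3 per group), adjusted p = 2.33e-09. Col18a1, of basement membranes, fell from 204, 197 and 229 CPM to 94.4, 70.5 and 68.7 CPM, and Col7a1, of anchoring fibrils, rose from 0.839, 1.14 and 1.54 CPM to 2.52, 4.31 and 3.63 CPM. Enzymes that cross-link or modify collagen were 2 higher and none lower of 18, Loxl4 at 20.1, 21.1 and 20.1 CPM against 3.15, 2.64 and 3.17 CPM and the lysyl hydroxylase Plod2 at 111, 116 and 119.7 CPM against 43.7, 42.2 and 37.9 CPM. Loxl4 had a log2 fold change of 2.77 ± 0.137 (SE, n = 3 per group), adjusted p = 1.93e-09, and Plod2 one of 1.497 ± 0.0826 (SE, n = 3 per group), adjusted p = 5.78e-09. Among 75 extracellular proteases and inhibitors, 6 were lower, among them Adamts7 (log2 fold change -1.46) and Adam19 (-1.15), and 2 were higher, Adamts9 (1.36) and Klk10.

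Wnt signalling genes gave the largest count in one direction with none in the other: 12 of 59 were lower and none higher, with 12 lower also without FAK-WT replicate 1 and 11 without FAK-/- replicate 3 as well. Wnt ligands are secreted lipid-modified proteins that bind Frizzled receptors with LRP co-receptors and stabilise beta-catenin, and the list held ligands, antagonists, receptors and targets alike. Among ligands, Wnt7b was read at 0, 0.0532 and 0.0865 CPM in FAK-WT and 8.36, 7.53 and 9.41 CPM in FAK-/- libraries (adjusted p = 2.22e-09), and Wnt10b at 0, 0.905 and 1.01 CPM against 8.39, 7.29 and 10.98 CPM, a log2 fold change of -3.24 ± 0.219 (SE, n = 3 per group), adjusted p = 5.63e-08. Both were read in all FAK-/- libraries at 7 CPM or more, and in FAK-WT libraries at about 1 CPM or less. The secreted antagonist Sfrp1 also fell, from 78.0, 79.4 and 85.2 CPM to 5.04, 4.68 and 5.22 CPM, a log2 fold change of -4.03 ± 0.103 (SE, n = 3 per group), adjusted p = 1.16e-12. The antagonist Notum and the agonist Rspo2 were lower too, at levels under 1 CPM in FAK-/- cells.

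Receptors of the pathway fell as well. Fzd1 stood at 2.52, 6.25 and 5.22 CPM in FAK-WT libraries and 18.6, 16.3 and 18.1 CPM in FAK-/- libraries, a log2 fold change of -1.65 ± 0.128 (SE, n = 3 per group), adjusted p = 2.54e-07. The co-receptor Lrp5 was at 2.52, 7.61 and 6.89 CPM against 20.9, 19.5 and 24.1 CPM, a log2 fold change of -1.61 ± 0.136 (SE, n = 3 per group), adjusted p = 6.54e-07. Fzd8, Fzd4 and the receptor kinase Ror2 had log2 fold changes of -1.57, -1.24 and -1.44. Fzd9 was lower at under 1 CPM, and not past the threshold without FAK-WT replicate 1 and FAK-/- replicate 3. Lef1, a DNA-binding partner of beta-catenin and itself a target, fell by 1.81 on the log2 scale. Beta-catenin (Ctnnb1) was read at 806, 824 and 796 CPM against 902, 916 and 874 CPM (log2 fold change -0.15, adjusted p = 0.0882), and Axin1 and Ryk had log2 fold changes of 0.15 and -0.10. The median over the 59 genes was -0.51, and -0.21 when genes that had no more than 3 counts throughout a group were set to the least fold their depth allowed.

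TGF-beta and BMP signalling gave 10 lower and none higher of 68, 8 lower without FAK-WT replicate 1 and 6 without FAK-/- replicate 3 or without FAK-WT replicate 3. Inhbb, the activin beta B chain, was read at 0, 0.106 and 0.0865 CPM against 3.72, 2.68 and 4.10 CPM, and follistatin (Fst), which binds activins, at 69.2, 89.2 and 92.0 CPM against 267, 251 and 317 CPM, a log2 fold change of -1.67 ± 0.111 (SE, n = 3 per group), adjusted p = 4.66e-08. A ligand and its antagonist were thus both lower in FAK-WT cells. Pmepa1, a feedback inhibitor that sequesters SMADs, fell from 27.4, 28.2 and 35.1 CPM to 1.26, 3.51 and 2.91 CPM, a log2 fold change of -3.25 ± 0.149 (SE, n = 3 per group), adjusted p = 9.26e-10, and Id4, a target of BMP signalling, from 136, 133 and 179 CPM to 41.5, 40.6 and 43.5 CPM, a log2 fold change of -1.83 ± 0.119 (SE, n = 3 per group), adjusted p = 3.87e-08. Bambi, Lefty1, Fstl3, Eng, Smad9 and Ltbp2 were lower at levels under 5 CPM, of which Fstl3 shares much of its sequence with other genes, and Eng and Smad9 were not past the threshold without FAK-WT replicate 1. The list's median was -0.26, and -0.24 with genes at few counts set to their bound. Ltbp1 and Ltbp3, which store latent TGF-beta in the matrix, had log2 fold changes of -0.50 and -0.16, neither past the threshold.

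Notch and homeobox genes leaned the same way. Of 34 Notch receptors, ligands and targets, 4 were lower and none higher. Notch1 was read at 3.78, 3.35 and 2.94 CPM against 13.4, 13.8 and 19.1 CPM, a log2 fold change of -2.28 ± 0.165 (SE, n = 3 per group), adjusted p = 1.22e-07, while Hes6, Hey1 and Nrarp, of the target part of the list, also fell, Hes6 by 2.00 on the log2 scale. Much of the sequence of Nrarp is shared with other genes, which makes its count uncertain. Both Notch2 and Rbpj stayed near level, with log2 fold changes of -0.0023 and -0.020. Of 40 Hox and T-box genes, which fix position along the body, 5 were lower and 2 higher, and 17 were lower with no fold minimum. Tbx18 fell from 108, 108 and 99.6 CPM to 29.0, 36.2 and 35.7 CPM, a log2 fold change of -1.58 ± 0.0832 (SE, n = 3 per group), adjusted p = 3.57e-09, and Hoxb8 from 19.4, 16.4 and 22.3 CPM to 3.78, 6.01 and 6.78 CPM. The count of lower genes was 3 without FAK-/- replicate 3 and 2 without FAK-WT replicate 3. The median of the list, -0.55, was the lowest of the lists of over 10 genes.

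Growth factors and their receptors moved in both directions. Of 24 EGF receptor family members and ligands, 3 were lower and none higher. Egfr stood at 23.9, 17.2 and 18.5 CPM against 34.7, 38.5 and 38.2 CPM, a log2 fold change of -1.02 ± 0.107 (SE, n = 3 per group), adjusted p = 5.99e-06, a fall under the minimum without FAK-WT replicate 2 (-0.93) or FAK-/- replicate 2 (-0.99), and the ligand betacellulin (Btc) at 15.1, 13.4 and 15.7 CPM against 40.3, 38.5 and 35.4 CPM, while Ereg (epiregulin) had a log2 fold change of 0.033. Of 47 PDGF, VEGF and FGF ligands and receptors, 5 were lower and 3 higher. Both PDGF receptors fell, Pdgfrb from 25.1, 26.0 and 26.2 CPM to 3.78, 6.87 and 5.85 CPM and Pdgfra from 33.5, 32.8 and 26.8 CPM to 10.1, 11.7 and 11.4 CPM, and the ligand Pdgfc rose from 14.8, 13.1 and 17.1 CPM to 40.3, 34.97 and 34.0 CPM. Fgfr2 fell by 2.73 and placental growth factor (Pgf) by 1.63 on the log2 scale, and Nrp1, a co-receptor of VEGF and semaphorins, rose with a log2 fold change of 1.40. In the IGF system of 19 genes, Igfbp3 was lower and Irs1 and Igf2bp1 were higher.

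Genes that respond to interferon gave the largest number of increases of any list: 20 of 100 were higher and 2 lower (Ifi47 and Rtp4, both under 1 CPM), beside 2.32% higher and 3.06% lower over all genes. Interferons act through transcription factors that bind a promoter element called the interferon-stimulated response element (ISRE), and the genes encode sensors of foreign nucleic acid, antiviral effectors and chemokines. The promoters of 3 of the higher genes and of a chemokine that also rose are shown because they hold that element. Each is a RefSeq window on GRCm38.p6 of 250 bases before and 50 bases after the start of the gene, read along the gene's strand, with letters that match GAAA, any 2 bases and GAAA again on either strand in capitals. Ifit1 at chr19:34640639-34640938 (plus strand) has matches that begin at -104 and -85 from the start site, Isg15 at chr4:156200769-156201068 (minus strand) has overlapping matches that begin at -78, -72 and -66, Ddx58 at chr4:40239776-40240075 (minus strand) has a match just after its start, and Cxcl10 at chr5:92348840-92349139 (minus strand) a match at -213.
Ifit1: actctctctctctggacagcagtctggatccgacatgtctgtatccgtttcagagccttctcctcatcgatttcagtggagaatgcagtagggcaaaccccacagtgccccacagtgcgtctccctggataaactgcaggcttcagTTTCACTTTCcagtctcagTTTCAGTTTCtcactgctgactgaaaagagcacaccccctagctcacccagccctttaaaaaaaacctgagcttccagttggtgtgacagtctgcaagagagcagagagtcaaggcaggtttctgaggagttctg
Isg15: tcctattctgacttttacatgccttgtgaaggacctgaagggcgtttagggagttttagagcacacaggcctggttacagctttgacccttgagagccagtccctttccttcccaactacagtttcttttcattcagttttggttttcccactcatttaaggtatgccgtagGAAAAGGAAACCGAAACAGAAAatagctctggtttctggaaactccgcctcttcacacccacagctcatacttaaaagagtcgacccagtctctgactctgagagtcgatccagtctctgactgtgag
Ddx58: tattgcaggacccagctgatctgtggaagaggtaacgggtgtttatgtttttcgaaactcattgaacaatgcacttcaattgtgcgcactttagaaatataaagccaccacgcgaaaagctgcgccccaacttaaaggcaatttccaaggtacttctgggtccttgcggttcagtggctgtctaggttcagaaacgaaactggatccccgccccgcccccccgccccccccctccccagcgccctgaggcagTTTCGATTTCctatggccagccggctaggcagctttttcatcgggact
Cxcl10: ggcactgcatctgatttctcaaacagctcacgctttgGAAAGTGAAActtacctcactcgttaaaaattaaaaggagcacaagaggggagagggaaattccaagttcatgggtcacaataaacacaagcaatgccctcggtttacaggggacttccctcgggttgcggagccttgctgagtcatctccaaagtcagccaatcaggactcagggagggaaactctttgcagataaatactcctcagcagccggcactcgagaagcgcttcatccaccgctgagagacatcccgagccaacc

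The motif was present in 3.44% of all 32851 promoter windows. Counted by gene, with the motif in any window of the gene, it was present in 3.7% of the genes tested. It was present in 26 of 311 genes higher in FAK-WT cells (8.36%), in 13 of 408 lower (3.19%) and in 3.59% of genes not past the threshold. Within the interferon list it was held by 11 of 16 higher genes (68.8%) and by 27 of 60 of those not past the threshold (45%). Most list genes with the motif were not past the threshold, as were 78 of the 100 list genes. The AP-1 motif TGANTCA was present in 13.5% of higher genes, 10.5% of lower genes and 7.03% of those not past the threshold. These shares are descriptions of letters in a short window, with windows for 12580 of the genes tested.

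The sensors and effectors rose from low levels. Ifit1, which binds viral RNA that lacks cap methylation, was read at 3.78, 6.15 and 6.20 CPM in FAK-WT libraries and 0.599, 0.394 and 0.128 CPM in FAK-/- libraries, a log2 fold change of 3.95 ± 0.387 (SE, n = 3 per group), adjusted p = 3.04e-06. Isg15, a ubiquitin-like modifier, was at 5.04, 6.92 and 7.32 CPM against 1.17, 1.26 and 1.505 CPM, a log2 fold change of 2.39 ± 0.278 (SE, n = 3 per group), adjusted p = 1.73e-05. Aim2, a cytosolic DNA sensor that builds inflammasomes, was at 6.29, 3.97 and 5.16 CPM against 0.120, 0.158 and 0.192 CPM, a log2 fold change of 4.90 ± 0.383 (SE, n = 3 per group), adjusted p = 2.68e-07. The RNA sensor Ddx58 (RIG-I) stood at 6.29, 7.77 and 6.37 CPM against 2.22, 3.71 and 3.20 CPM, Ifit2 at 18.9, 12.99 and 11.9 CPM against 6.05, 5.13 and 4.45 CPM, and the nuclear body protein Sp100 at 13.8, 6.81 and 7.56 CPM against 1.498, 0.867 and 1.12 CPM.

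Others of the list were clearer in the deep libraries alone. Gvin1, of the very large interferon-inducible GTPases, was read at 1.26, 4.34 and 4.96 CPM against 0.0300, 0.0394 and 0 CPM (adjusted p = 8.46e-07), but nearly all of its sequence is shared with other genes, so that its counts could be split among copies. Ifit3, Ifit3b, Ifih1, Oasl1, Oasl2, Rsad2, Mx2, Tlr6, Gbp3 and Gbp9 were past the threshold with no more than 1.26 CPM in any library, and Ifit3 and Ifit3b share much of their sequence with other genes. By DESeq2, and by edgeR with low genes left out by filterByExpr, 13 of the list were higher and none lower. Without FAK-WT replicate 1 the list gave 21 higher and 2 lower, and without FAK-/- replicate 3 as well 16 and 3, and Irgm1, Trim30d, Rsad2 and Mx2 were among those then no longer past the threshold. The list of 14 guanylate-binding-like and very large GTPases gave 4 higher, Gvin1, Gbp3, Gbp9 and Irgm1, and none lower. All 4 are also in the interferon list and are counted there. Members of high CPM were not past the threshold: Ifitm3 stood at 113, 122 and 119 CPM against 62.02, 59.7 and 59.6 CPM, a log2 fold change of 0.98 just under the minimum (1.01 without FAK-/- replicate 1), and Ifitm2 had 0.066. The median of the list was 0.31, and 0.26 with the genes at few counts set to their bound.

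Chemokines changed in both directions. Of 39 chemokines and receptors, 6 were higher and 4 lower. Cxcl10, which draws CXCR3-bearing T cells, was read at 2.52, 2.34 and 2.71 CPM in FAK-WT and 0.0899, 0.197 and 0.192 CPM in FAK-/- libraries, a log2 fold change of 3.97 ± 0.528 (SE, n = 3 per group), adjusted p = 6.57e-05. The CC chemokines Ccl2 (6.29, 10.9 and 11.7 CPM against 2.94, 2.29 and 1.70 CPM), Ccl5 (1.26, 3.51 and 3.40 CPM against 0.809, 0.513 and 0.480 CPM), Ccl7 (2.52, 4.76 and 5.28 CPM against 0.419, 0.355 and 0.640 CPM) and Ccl9 (11.3, 4.42 and 5.59 CPM against 0.779, 1.03 and 0.608 CPM), which attract monocytes and T cells, rose as well. The gene with the highest CPM among those that changed was lower: Cx3cl1 (fractalkine), the membrane-bound ligand of CX3CR1, was at 84.3, 73.3 and 76.8 CPM against 416, 409 and 465 CPM, a log2 fold change of -2.49 ± 0.0837 (SE, n = 3 per group), adjusted p = 2.64e-11. The receptor Cxcr4 and Ccl17 fell from about 1 CPM.

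Of the antigen presentation list 8.33% was past the threshold, and of the checkpoint and costimulatory ligands 15.6%, beside 5.38% of all genes tested. Of 36 genes of MHC class I and antigen presentation, 3 were higher and none lower: Nlrc5, a transactivator of MHC class I genes, the peptide transporter Tap1, and H2-DMb1, which helps to load peptides on MHC class II, each at 2.52 CPM or less in every library. Of 32 checkpoint and costimulatory ligands, Lgals9 was higher, at 2.52, 2.08 and 2.51 CPM against 0.360, 0.670 and 0.448 CPM, with Ido1, which was not past the threshold without FAK-WT replicate 1, while Cd200 (2.52, 1.78 and 1.93 CPM against 9.86, 10.3 and 7.36 CPM), Nt5e (CD73, 11.3, 10.4 and 10.1 CPM against 37.9, 32.6 and 29.5 CPM) and Icosl were lower. Of 31 other secreted cytokines, Il16 was higher, at under 1.3 CPM, and Il11 was lower, at 1.26, 2.26 and 2.71 CPM against 6.56, 7.61 and 9.19 CPM, a log2 fold change of -1.68 ± 0.222 (SE, n = 3 per group), adjusted p = 6.11e-05.

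**Figure D4:**
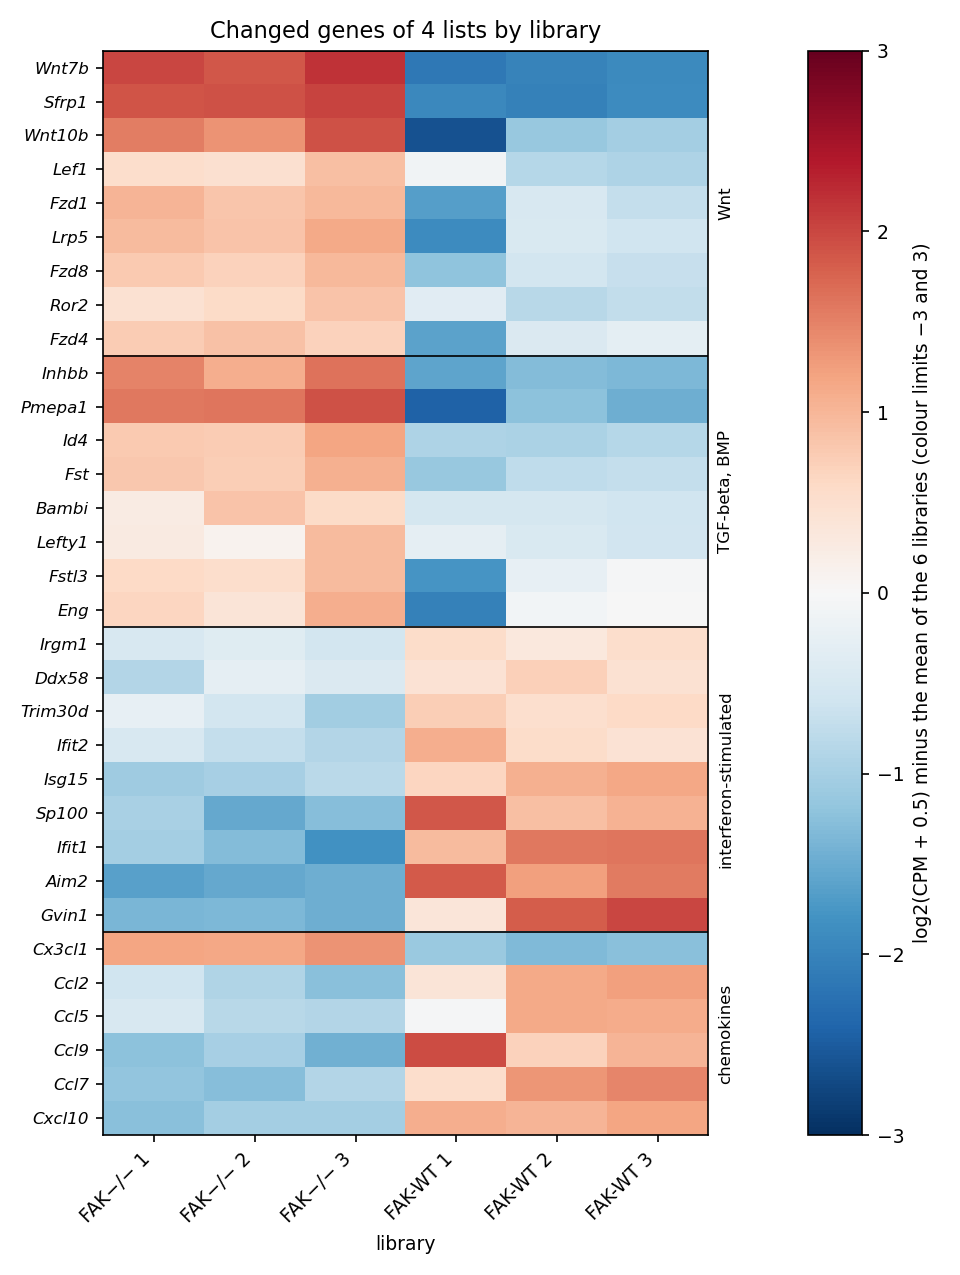
Each row is a gene past the threshold with a mean of at least 1 CPM from the Wnt, TGF-beta and BMP, interferon-stimulated and chemokine lists, each column a library, and the colour log2 of CPM plus 0.5 minus the mean of the 6 libraries, 32 genes in all. The rows were chosen for the difference between the FAK-/- and FAK-WT columns, and FAK-WT replicate 1 is more extreme than its replicates in several low genes, where it had few counts.

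Few members of the transcription factor families linked with FAK and ERK signalling were past the threshold. Of 25 AP-1 and ATF factors, Maf was lower, at 10.1, 6.17 and 5.62 CPM against 27.6, 27.8 and 28.9 CPM, a log2 fold change of -2.21 ± 0.122 (SE, n = 3 per group), adjusted p = 5.51e-09, and none was higher. Jun was read at 296, 296 and 293 CPM in FAK-WT and 413, 402 and 564 CPM in FAK-/- libraries, a log2 fold change of -0.64 (adjusted p = 5.54e-04) that was under the fold minimum, with FAK-/- replicate 3 the highest. No ETS factor of 25 and no Krüppel-like factor of 23 was past the threshold. At an adjusted p of 0.05 or below with no fold minimum, 4 ETS factors were lower and 2 higher. At that setting 5 Krüppel-like factors were lower and none higher. The ETS factors Elk3 and Etv5 had log2 fold changes of -0.64 and -0.54. Of 55 genes of ERK output and feedback, Spry1 was lower, at 0, 0.479 and 0.375 CPM against 1.56, 1.66 and 1.15 CPM, and Ccnd1 had a log2 fold change of -0.23. With no fold minimum, 14 of these 55 genes were lower and 5 higher, and 5 AP-1 and ATF factors were lower and 2 higher. Over all genes, 9.96% were lower and 8.01% higher at that setting.

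Of 28 NF-kB subunits and feedback inhibitors, Birc3 and Bcl3 were lower, from under 2 CPM, and the subunits Nfkb1, Nfkb2 and Rela had log2 fold changes of -0.035, 0.065 and -0.25. The p53 list of 36 genes gave 3 higher and 2 lower. Ccng1, a p53 target, was read at 681, 589 and 632 CPM against 323, 319 and 245 CPM, a log2 fold change of 1.09 ± 0.0987 (SE, n = 3 per group), adjusted p = 1.25e-06, but it was not past the minimum without FAK-/- replicate 3 (0.97). Plk2 rose, from 30.4, 32.1 and 31.7 CPM to 68.0, 63.4 and 62.9 CPM, and the cyclin-dependent kinase inhibitor Cdkn2c fell from 116, 117 and 149.9 CPM to 52.9, 57.2 and 57.4 CPM. With no fold minimum, 13 of the list were higher and 5 lower, among them Mdm2 with 0.48, and Trp53 had -0.10.

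**Figure D5:**
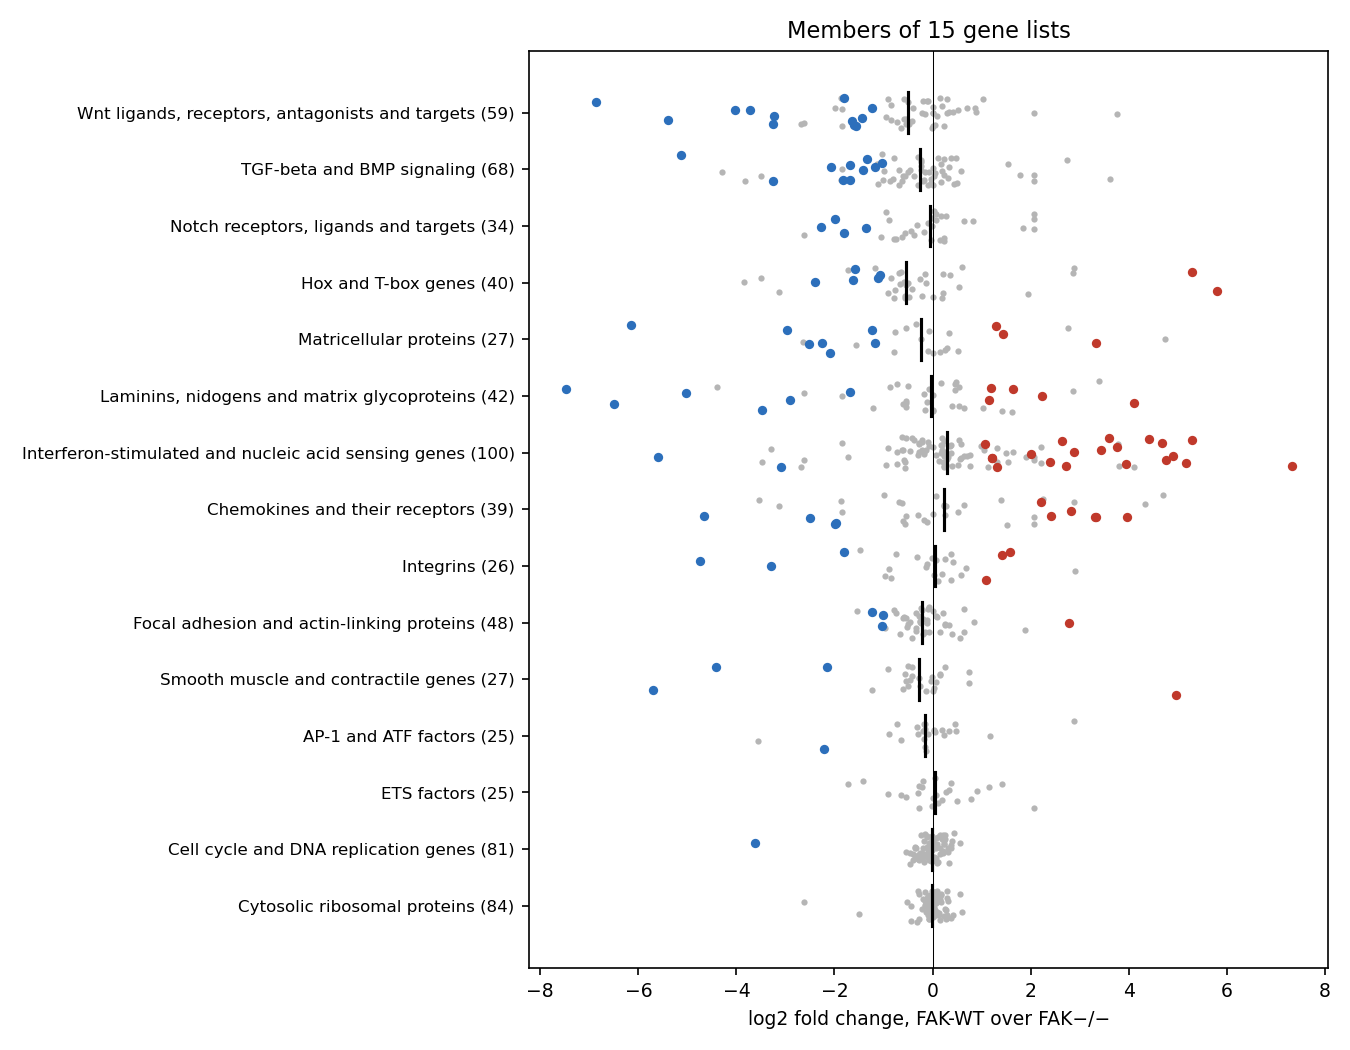
Log2 fold change of FAK-WT over FAK-/- cells (x axis) for each member of 15 lists, with members past the threshold in red (higher) or blue (lower), others in grey, and a black bar at the list's median. The Wnt members past the threshold all lie to the left and 20 of the 22 interferon-stimulated ones to the right, while cell cycle and ribosomal protein genes lie close to 0 except for Ccnd2 and a few low genes.

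Few proliferation and protein homeostasis genes were past the threshold. Of 81 cell cycle and DNA replication genes, Ccnd2 was lower, at 0, 0.399 and 0.231 CPM against 3.72, 3.63 and 4.26 CPM, and none was higher. The median log2 fold change of the list was -0.02, and with no fold minimum 10 of its genes were higher and 10 lower. None of 84 cytosolic ribosomal protein genes, 38 proteasome subunits or 31 unfolded protein response and heat shock genes was past the threshold, with medians of -0.0035, 0.11 and 0.09. With no fold minimum, 4 ribosomal protein genes were lower and none higher, and 7 proteasome subunits were higher and none lower. Of the unfolded protein response and heat shock genes, 8 were then higher and 1 lower, beside 8.01% higher and 9.96% lower over all genes. Of 95 oxidative phosphorylation subunits, Cox7b2 was higher, at 1.3 CPM or less. Of 123 chromatin remodelers and histone modifiers, Smarca2 was lower, with 6.29, 4.42 and 2.83 CPM against 12.3, 8.08 and 4.001 CPM, where the groups overlapped. Smarca2 was not past the threshold without FAK-/- replicate 1 (log2 fold change -0.67) or without FAK-WT replicate 3 (-0.83).

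Most metabolic genes were not past the threshold, but a few changed by large steps. In the list of 43 glycolysis and hypoxia genes, 2 were higher and 4 lower, 14% in all, beside 5.38% of all genes tested. With no fold minimum, 21 were higher and 6 lower, beside 8.01% higher and 9.96% lower over all genes. Ldha was read at 4667, 4601 and 4744 CPM against 3449, 3347 and 3503 CPM, a log2 fold change of 0.44 (adjusted p = 1.06e-04), and Pgk1 had 0.43. Past the minimum, the carbonic anhydrases Car9 and Car12 rose by 1.31 and 1.30 on the log2 scale, while Epas1 (HIF-2 alpha) fell from 25.9, 27.2 and 30.3 CPM to 2.52, 4.23 and 3.92 CPM, a log2 fold change of -2.78 ± 0.119 (SE, n = 3 per group), adjusted p = 5.26e-10, and Ldhb fell by 1.07 on that scale, a value of -0.998 and not past the threshold without FAK-/- replicate 1. In 44 cholesterol and fatty acid synthesis genes, 16 were lower against 4 higher with no fold minimum, among them Fdps with -0.33. Of 64 antioxidant genes, Sod3, the extracellular superoxide dismutase, was read at 6.29, 8.44 and 7.87 CPM against 0.0899, 0.0394 and 0.0320 CPM (adjusted p = 1.57e-09), and Ephx1 rose, from 92.5, 91.9 and 85.7 CPM to 213, 189 and 195 CPM, while Aldh3a1 fell to 175, 179 and 182 CPM from 369, 349 and 358 CPM, at the fold minimum, and was not past it under most other settings (log2 fold change -0.99 without FAK-WT replicate 1). Ogdhl and Atg9b were the single higher genes of 19 in the 2-oxoacid dehydrogenase and 37 in the autophagy list, with log2 fold changes of 2.04 and 2.14. In 48 cathepsin and lysosome genes, 3 were lower, and Ctsz, a carboxypeptidase, was read at 0, 0.0266 and 0 CPM against 9.74, 9.03 and 8.68 CPM (adjusted p = 2.19e-11).

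Epithelial genes changed in both directions. Of 34 keratins, 4 were lower and 1 higher: Krt20 stood at 1.26, 0.106 and 0.115 CPM against 6.29, 7.02 and 6.18 CPM, Krt12 (of which much sequence is shared with other genes), Krt13 and Krt15 were lower, and Krt80 rose from 2.73, 2.80 and 3.39 CPM to 11.3, 12.8 and 11.1 CPM. Of 10 desmosome genes, the plakophilins Pkp1 (1.26, 2.55 and 3.03 CPM against 23.2, 23.9 and 26.1 CPM) and Pkp2 (2.52, 2.53 and 2.80 CPM against 9.62, 8.75 and 8.87 CPM) fell, with log2 fold changes of -3.15 and -1.77, while Jup and Pkp3 had -0.12 and -0.091. Tight junction genes gave 3 higher and 1 lower of 23, led by Cldn6 at 31.5, 32.2 and 34.5 CPM against 8.09, 7.37 and 9.60 CPM, and Shroom2, which anchors actomyosin at junctions, rose from 0.330, 0.552 and 0.352 CPM to 7.55, 5.75 and 6.03 CPM. Of 20 classical cadherins and catenins, Cdh5 and Cdh26 were higher and Cdh24 was lower. Cdh24 was not past the threshold with FAK-WT replicate 1 and FAK-/- replicate 3 both left out. Of 31 cornified envelope genes 2 were higher and 3 lower, each at under 4 CPM, and 1 and 2 without FAK-WT replicate 1, where Cnfn and Ivl were no longer past the threshold. Gap junction genes gave 3 lower of 14, of which Panx1 fell by 1.08 on the log2 scale, and the common connexin Gja1 had -0.061. Of 25 regulators and markers of the epithelial to mesenchymal transition, Snai2 (Slug) rose, from 21.2, 20.6 and 17.8 CPM to 46.6, 46.2 and 45.7 CPM, a log2 fold change of 1.21 ± 0.108 (SE, n = 3 per group), adjusted p = 1.05e-06, and Foxc2 fell from 69.8, 72.0 and 108 CPM to 45.3, 39.1 and 37.6 CPM, a fall not past the minimum without FAK-/- replicate 3 (log2 fold change -0.87).

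Genes of neural-type adhesion and guidance changed in number. Of 66 Fat, Dachsous and protocadherin genes, 9 were lower and 2 higher. Fat4 was read at 2.91, 3.86 and 3.30 CPM in FAK-/- libraries and at 0 in both deep FAK-WT libraries (adjusted p = 6.23e-06), and Fat1 rose, from 32.0, 34.0 and 40.8 CPM to 69.2, 73.7 and 70.3 CPM, a rise under the minimum without FAK-/- replicate 1 (log2 fold change 0.94), FAK-/- replicate 2 (0.98) or FAK-WT replicate 2 (0.98). Of the lower genes, 5 were of the Pcdhb cluster, and Pcdhgb2, also lower, shares much of its sequence with other genes. Of 74 axon guidance genes, 11 were lower and 6 higher: Robo2 fell from 15.4, 14.7 and 13.9 CPM to 5.04, 4.12 and 4.61 CPM and the netrin receptor Unc5b from 313, 309 and 368 CPM to 146, 156 and 148 CPM (a log2 fold change of -0.97, under the minimum, with offsets for GC content), and the semaphorins Sema3c and Sema6b rose by 1.54 and 1.43 on the log2 scale. Of 133 ion channels 10 were lower and 3 higher, among them Kcnf1 at 5.04, 6.81 and 7.30 CPM against 33.1, 31.1 and 33.7 CPM, and of 308 solute carriers 10 were lower and 6 higher, 5.19% in all, beside 5.38% of all genes tested.

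Tetraspanins and proteoglycans gave 4 lower and 1 higher of 34. The syndecan Sdc3 fell from 103, 98.4 and 115 CPM to 16.4, 21.8 and 20.2 CPM, a log2 fold change of -2.35 ± 0.0917 (SE, n = 3 per group), adjusted p = 2.15e-10, and Tspan6 from 4.88, 5.72 and 4.42 CPM to 0, 0.0798 and 0.0577 CPM. Of 12 Rhox homeobox genes on the X chromosome, Rhox5 was read at 116, 120.3 and 124 CPM against 27.7, 27.1 and 31.8 CPM, a log2 fold change of 2.07 ± 0.104 (SE, n = 3 per group), adjusted p = 2.33e-09, and Rhox2h was higher too, although Rhox2h shares much of its sequence with other genes and the counts of Rhox5 are the same as those of another identifier. Of 30 genes that regulate G protein-coupled receptors, Arrb1 (beta-arrestin 1) and Txnip were higher, with log2 fold changes of 2.17 and 1.82, and Rgs3 was lower. Of 40 nuclear hormone receptors, Thrb was higher and Rorb, Rora and Nr4a2 were lower, and of 8 genes of the adrenomedullin and calcitonin receptor family, Calcrl and Calcb were higher. The 15 S100 genes and the 26 imprinted genes each gave 1 higher and 1 lower, all under 2.3 CPM. Of 6 Y-linked genes, 5 were lower with no fold minimum and 3 past it, with Uba1y at 5.04, 13.04 and 13.4 CPM against 60.6, 62.9 and 59.8 CPM and Ddx3y at 13.8, 17.5 and 17.9 CPM against 44.1, 48.9 and 34.7 CPM.

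The FAK-kd libraries, made from the same FAK-/- clone with a kinase-deficient FAK, are given beside the others without a test. Ptk2 was read there at 155, 158 and 176 CPM, Il33 at 21.6, 37.7 and 37.4 CPM and Acta2 at 118, 106 and 100.3 CPM. Sfrp1 was at 58.1, 57.1 and 57.5 CPM, Cx3cl1 at 337, 299 and 309 CPM and Isg15 at 0.809, 1.71 and 1.02 CPM. Igfbp3 was at 8.72, 9.20 and 8.81 CPM and Dynap at 59.0, 61.1 and 57.0 CPM, each between the values of the other cell lines.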

How the data were processed

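RNA was sequenced from 9 libraries, 3 for each of 3 cell lines. The authors deposited a table of estimated counts per gene, made with kallisto 0.43.1 per the submitters' processing notes on mouse transcripts (GRCm38) and summed to genes with tximport. Its values were whole numbers. All 19044 identifiers were fitted with edgeR 4.0.16 (R 4.3.3; TMM scaling, quasi-likelihood test, group as the only term, all 9 libraries). Genes past the threshold had a Benjamini-Hochberg adjusted p no greater than 0.05 together with a log2 fold change of 1 or more up or down. CPM were scaled to the effective library size (library total times TMM factor), so that they compare libraries but not genes of different length. The gene lists and the genes examined were chosen with earlier results of these data known.

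By rule, the text names Ptk2, Il33 and Acta2, then in each direction the 12 largest changes among genes with a mean of at least 5 CPM, no overlap and a call also without FAK-WT replicate 1, and then from each list up to 4 members past the threshold with a mean of at least 1 CPM and up to 3 others of the highest mean CPM. Rpl10-ps1, Bambi, Ccl2, Ddx58, Eng, Fstl3, Fzd1, Fzd4, Fzd8, Ifit2, Isg15, Lefty1, Lrp5, Ror2, Trim30d, Unc5b and list members with a mean under 1 CPM were named after their values were seen. A few list members and 1 list are not reported here. Promoters came from RefSeq. Same-numbered FAK-WT and FAK-/- libraries did not deviate together (r between -0.0361 and 0.00228), and the numbers were not treated as pairs. DESeq2 1.42.0 was among 18 alternatives, described at the end.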

Additional observations from a re-analysis of the deposited data

How the results depend on the processing

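The count of higher genes (442) stayed between 306 and 486 and that of lower genes (582) between 435 and 582 under all alternatives but those named next. A minimum of 10 counts in every library, which leaves 8085 genes and takes out those near 0 in the shallow library or in either group, gave 80 higher and 81 lower. With no fold minimum the counts were 1526 and 1896, and with glmTreat, where the test itself holds the fold minimum, they were 171 and 262. DESeq2 gave 306 and 441. Leaving out each library in turn gave 325 to 460 higher and 435 to 582 lower, with the lowest of both without FAK-WT replicate 3. With the replicate number as a block, although it does not pair the libraries (the same-numbered correlations were 0.00228, -0.0361 and -0.0231), 379 were higher and 562 lower. Of the 131 genes past the threshold that are given with values, 118 remained past it under every alternative that tested them apart from glmTreat, and 94 under glmTreat. Of 136 counts of higher or lower members of the gene lists, 29 moved by over 1.5 times without FAK-WT replicate 3, 26 without FAK-WT replicate 2, 17, 15 and 12 without FAK-/- replicates 1, 2 and 3, 5 without FAK-WT replicate 1 and 21 under DESeq2. None of the genes given with values changed direction while past the threshold. Depth limits what FAK-WT replicate 1 can show to genes of about 4 CPM and above, and list counts that rest on genes under 1 CPM rest on the deep libraries.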
